A study of Mus musculus with 6 samples.

Results

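The enzymes and transporters of glycolysis, gluconeogenesis, fructose entry and the pentose phosphate pathway were described in mouse liver, as 36 genes listed by symbol, out of 35976 genes in the deposited table. All 36 had counts in every library and all passed the filter on low counts, which left 14954 genes to test. The study set livers of male mice of genotype IRE1PKO (3 libraries) against livers of genotype IRE1fl (3 libraries), all on a high-fat diet (HFD in the labels). Livers were taken 4 hours into feeding that followed a 16-hour fast. By its title, the study concerns unfolded protein response signals between the pituitary and the liver in fatty liver disease. What PKO stands for is not spelled out, and neither the Cre driver, nor the cells that lost IRE1, nor the age of the mice was given in the sources used here. Whether each library is a separate animal is not stated.

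Liver takes up glucose, traps it as glucose 6-phosphate, and from there burns it through glycolysis, stores it, or oxidises it in the pentose phosphate pathway, which yields the NADPH used in fat synthesis. In fasting it runs the other way: gluconeogenesis builds glucose 6-phosphate from lactate, glycerol and amino acids, and the glucose 6-phosphatase system in the endoplasmic reticulum frees the glucose for export. Insulin and feeding lower the transcripts of the gluconeogenic enzymes and raise those of the glycolytic and pentose phosphate enzymes. Many steps have a liver isozyme and others used by muscle, brain, blood or dividing cells.

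In IRE1PKO livers, 3 of the 36 genes rose and 3 fell. The 3 that fell, G6pc, Slc37a4 and Pck1, all belong to gluconeogenesis, and they were between 1.51-fold and 1.86-fold lower. Of the 3 that rose, Pgd and Tkt belong to the pentose phosphate pathway and were 1.94-fold and 1.70-fold higher, and Eno1b, an enolase gene, was 7.74-fold higher. The split of reads between Eno1b and the similar gene Eno1 is uncertain, and the sum of both did not pass (edgeR adjusted p = 0.114). Counts scaled by TMM (trimmed mean of M-values) were tested with edgeR's quasi-likelihood method, and p-values were adjusted over all tested genes by the Benjamini-Hochberg procedure, with a threshold of 0.05. Over all tested genes 9.54% were called, 5.68% as higher and 3.86% as lower in IRE1PKO, so the 16.7% called among the 36 genes stands beside that background. The members' log2 fold changes (IRE1PKO over IRE1fl throughout) had a median of 0.21, against -0.0014 over all tested genes, and 29 of 36 were above 0, or 80.6% against 49.8% of all tested genes. The 3 IRE1PKO and 3 IRE1fl libraries did not overlap for 13 members, 10 higher and 3 lower, which is 36.1%, beside 31.0% of all tested genes.

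The 6 libraries held 35776219 to 39277435 counts, and the 36 genes took 0.805% to 0.981% of them. Among all tested genes 849 rose and 577 fell in IRE1PKO, so that 59.5% of calls were higher; with library totals as the only scaling that share was 73.4%. The background depended on single libraries. Leaving out IRE1fl 2 gave 553 higher and 343 lower genes, leaving out IRE1fl 3 gave 472 and 317, leaving out IRE1PKO 1 gave 398 and 255, and leaving out IRE1PKO 2 gave 484 and 331. Liver Ern1, which encodes IRE1, had 45.7, 36.6 and 44.2 CPM (counts scaled to a common library size) in IRE1PKO and 61.2, 49.3 and 60.8 CPM in IRE1fl, with a log2 fold change of -0.44 (SE 0.11, edgeR adjusted p = 0.0357). That call held without IRE1fl 2 and was lost without any other library (adjusted p up to 0.137), and with all 6 it was lost under library totals (adjusted p = 0.0660) and limma-voom (0.0512); if the deletion lies outside the liver, the value checks no label.

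**Figure D1:**
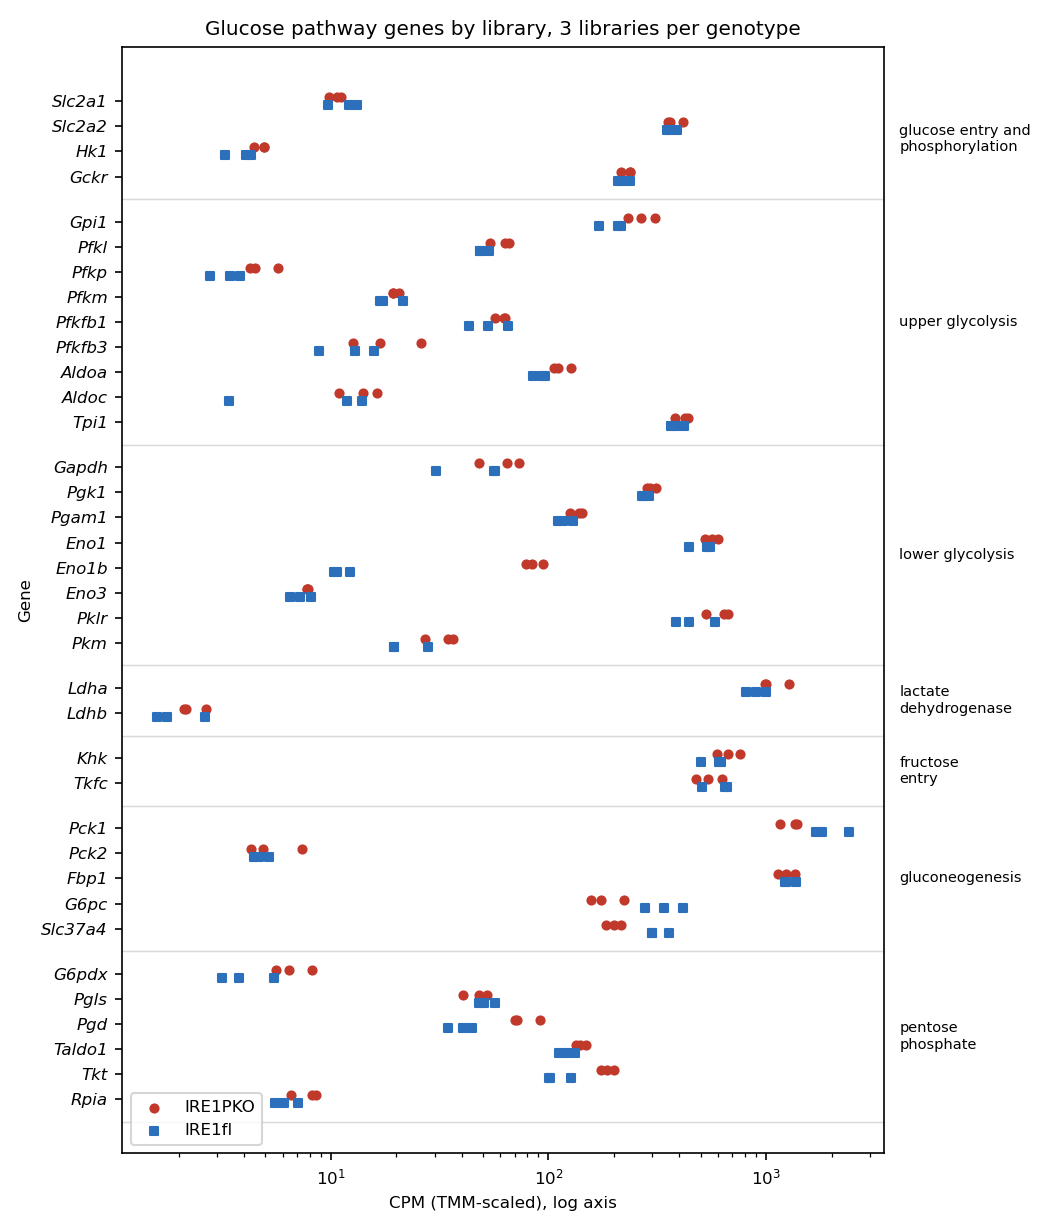
CPM of each of the 36 genes in each library on a log axis, grouped by role, with IRE1PKO as red circles above IRE1fl as blue squares. The genes span from about the 1.59 CPM of the lowest Ldhb library to the 2414 CPM of the highest Pck1 library, and the genotypes separate most for Eno1b.

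Per kilobase of coding length (union of coding exons, GENCODE vM21), the gluconeogenic gene Fbp1 stood first among the members, at 1224 ± 113 CPM per kb in IRE1PKO and 1261 ± 84.5 CPM per kb in IRE1fl (SD, n = 3 each). Ldha followed at 1004 ± 149 in IRE1PKO and 835 ± 87.7 CPM per kb in IRE1fl, and Pck1 at 699 ± 70.3 in IRE1PKO and 1059 ± 206 CPM per kb in IRE1fl. Ranked on both groups together, Khk, Tpi1 and Eno1 came next. The lowest level was that of Hk1, a hexokinase of most tissues other than hepatocytes, at 1.50 ± 0.0880 in IRE1PKO and 1.21 ± 0.170 CPM per kb in IRE1fl. Reads fall on whole transcripts, so a gene with long untranslated parts is set too high on this scale.

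Gluconeogenesis was the role in which the members fell. Of its 5 members 3 fell and none rose, beside 3.86% and 5.68% of all tested genes. The summed level of the role was 2741, 2919 and 3152 CPM in IRE1PKO, below the 3796, 4298 and 3675 CPM in IRE1fl. G6pc (chromosome 11, 101367716 to 101377903, GRCm38.p6) encodes the catalytic subunit of glucose 6-phosphatase, which makes free glucose in the last step. It had 157, 174 and 222 CPM in IRE1PKO livers, against 414, 338 and 279 CPM in IRE1fl livers. Every IRE1PKO library lay below every IRE1fl library, and the log2 fold change was -0.90 (SE 0.17, edgeR adjusted p = 0.0114). Slc37a4 (chromosome 9, 44396946 to 44402966) encodes the transporter that carries glucose 6-phosphate into the endoplasmic reticulum to that enzyme. It had 184, 215 and 199.7 CPM in IRE1PKO livers, against 300.4, 299.8 and 357 CPM in IRE1fl livers. The groups were far apart relative to their spread, with a log2 fold change of -0.68 (SE 0.11, edgeR adjusted p = 0.00298). Both parts of the glucose 6-phosphatase system were thus lower in IRE1PKO.

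Pck1 (chromosome 2, 173153073 to 173159274), the cytosolic phosphoenolpyruvate carboxykinase that commits oxaloacetate to gluconeogenesis, had 1154, 1395 and 1365 CPM in IRE1PKO livers and 1698, 2414 and 1815 CPM in IRE1fl livers. Its groups did not overlap, and its log2 fold change was -0.60 (SE 0.14, edgeR adjusted p = 0.0251). The Slc37a4 call did not depend on any 1 library. The G6pc call was lost without IRE1PKO 2 (log2 fold change -0.86, edgeR adjusted p = 0.0528). The Pck1 call was lost without IRE1fl 2 (-0.43, adjusted p = 0.0867), IRE1PKO 1 (-0.52, adjusted p = 0.117) or IRE1PKO 2 (-0.65, adjusted p = 0.0595). The other gluconeogenic genes did not pass. Fbp1, the fructose-1,6-bisphosphatase, had 1241, 1129 and 1358 CPM in IRE1PKO and 1379, 1242 and 1221 CPM in IRE1fl, overlapping groups with a log2 fold change of -0.04 (SE 0.11). Pck2, the mitochondrial carboxykinase, had 4.31 to 7.36 CPM in IRE1PKO and 4.43 to 5.21 CPM in IRE1fl, at 0.21 (SE 0.22), and made up 0.388% ± 0.0951 of the carboxykinase transcripts per coding kb in IRE1PKO and 0.230% ± 0.0571 in IRE1fl (SD, n = 3 each). Those shares did not overlap by library, whereas the Pck2 CPM did. The rest of each share is Pck1, which was lower in IRE1PKO.

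The 250 bases before the start sites of the genes that fell together are shown because Pck1 and G6pc are classic targets of insulin and of cAMP, which acts through the cAMP response element (CRE). The sequences are RefSeq's on GRCm38.p6, 5′ to 3′ on the gene's strand, ending at the base before the start site; capitals mark every match to a searched motif on either strand.
Pck1, chr2:173152823-173153072, plus strand: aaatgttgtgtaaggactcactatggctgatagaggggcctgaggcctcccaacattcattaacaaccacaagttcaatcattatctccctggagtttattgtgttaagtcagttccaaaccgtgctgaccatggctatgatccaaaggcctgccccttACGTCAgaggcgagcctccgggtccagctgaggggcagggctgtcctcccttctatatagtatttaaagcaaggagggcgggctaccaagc
G6pc, chr11:101367466-101367715, plus strand: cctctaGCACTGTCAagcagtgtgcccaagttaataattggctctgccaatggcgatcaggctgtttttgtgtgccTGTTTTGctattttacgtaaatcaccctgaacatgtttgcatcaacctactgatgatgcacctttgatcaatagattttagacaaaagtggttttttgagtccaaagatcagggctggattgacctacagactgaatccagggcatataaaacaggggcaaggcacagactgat
Slc37a4, chr9:44396696-44396945, plus strand, the first of 3 start sites: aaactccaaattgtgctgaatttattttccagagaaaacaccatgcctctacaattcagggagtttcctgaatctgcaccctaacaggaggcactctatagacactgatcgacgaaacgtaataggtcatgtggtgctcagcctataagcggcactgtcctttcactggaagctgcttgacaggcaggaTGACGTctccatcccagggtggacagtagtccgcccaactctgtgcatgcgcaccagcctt
In Pck1 the capitals are a CRE core (ACGTCA) that begins 91 bases before the start. In G6pc they are an insulin response sequence (CAAAACA, on the other strand) beginning 174 bases before the start and a match to the core of the antioxidant response element (TGACNNNGC, other strand) beginning at 244. In Slc37a4 they are a CRE core on the other strand that begins 61 bases before the start. Among 32851 promoters of this length, the CRE core was in 6.47%, the insulin response sequence in 5.56% and the antioxidant core in 10.2%, with a match in any window of 7.29%, 6.38% and 11.5% of 27025 genes, and in 4, 3 and 6 of the 35 members with a listed promoter. A match is a stretch of letters and shows no binding. These 3 motifs were added after 5 others had given no match in the promoters of the genes that passed: CACGTG (E box), the carbohydrate response element, TGACGTCA (CRE, which contains the CRE core), TGACGTG (XBP1 core) and GTAAACA (forkhead). Pgd and Tkt had no match to any of the 8 in their listed windows.

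By edgeR with TMM scaling and a threshold of 0.05, the pentose phosphate pathway was the role with most rises. Of its 6 members 2 rose and none fell, beside 5.68% and 3.86% of all tested genes. With library totals as the only scaling, Gpi1, Pfkl and Aldoa of upper glycolysis rose, and in this role again Pgd and Tkt. The role's median log2 fold change was 0.51. Its summed level was 509, 454 and 438 CPM in IRE1PKO, above the 326, 369.7 and 305 CPM in IRE1fl. Pgd (chromosome 4, 149149991 to 149166705), the 6-phosphogluconate dehydrogenase that makes the second NADPH of the oxidative branch, had 91.5, 71.5 and 70.0 CPM in IRE1PKO livers and 40.7, 44.5 and 34.7 CPM in IRE1fl livers. The lowest IRE1PKO library was well above the highest IRE1fl library, with a log2 fold change of 0.96 (SE 0.13, edgeR adjusted p = 0.00148). Tkt (chromosome 14, 30549131 to 30574724), the transketolase of the non-oxidative branch that links the pentoses back to glycolysis, had 199.8, 186 and 175 CPM in IRE1PKO livers and 102, 127 and 101 CPM in IRE1fl livers. Its groups did not overlap either, and it rose by 0.76 (SE 0.11, edgeR adjusted p = 0.00186). Both calls held with each library left out in turn.

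Of the other 4 pentose phosphate genes none passed. G6pdx, the glucose-6-phosphate dehydrogenase that controls entry to the pathway, had 8.16, 6.43 and 5.60 CPM in IRE1PKO and 5.48, 3.15 and 3.77 CPM in IRE1fl. The lowest IRE1PKO library and the highest IRE1fl library were close, and the log2 fold change was 0.70 (SE 0.23, edgeR adjusted p = 0.0814). Taldo1, the transaldolase, had 149, 134 and 140.2 CPM in IRE1PKO and 120.5, 132 and 112 CPM in IRE1fl, which did not overlap, at 0.22 (SE 0.09, adjusted p = 0.174). Rpia, the ribose-5-phosphate isomerase, was at 0.32 (SE 0.17, adjusted p = 0.266). Pgls, the lactonase between the dehydrogenases, was the only member of the pathway below 0, at -0.14 (SE 0.11, adjusted p = 0.445), with 40.7 to 52.0 CPM in IRE1PKO and 48.0 to 56.6 CPM in IRE1fl.

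**Figure D2:**
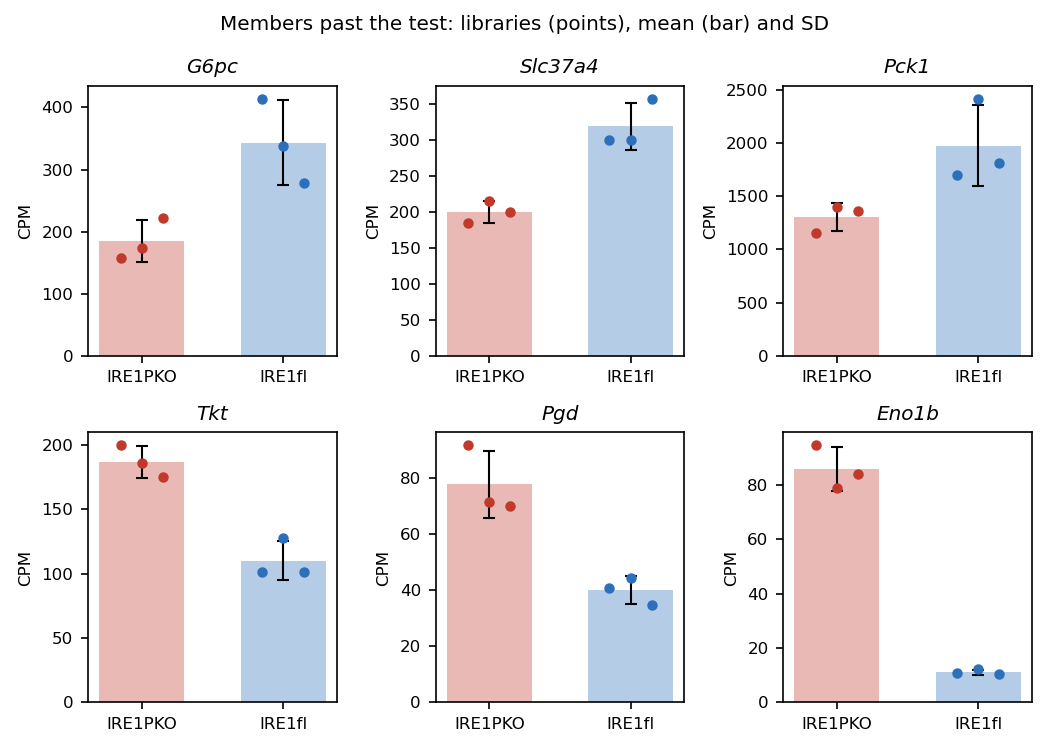
CPM of the 6 members that passed the test, with IRE1PKO left of IRE1fl; points are libraries, bars the mean and whiskers the SD of 3 libraries, on axes that start at 0. In every panel the 3 libraries of IRE1PKO lie on one side of the 3 of IRE1fl, lower for G6pc, Slc37a4 and Pck1 and higher for Tkt, Pgd and Eno1b.

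Entry and phosphorylation of glucose showed no member past the test. Slc2a2, the glucose transporter of hepatocytes, had 356, 416 and 360.4 CPM in IRE1PKO and 350.1, 364 and 389 CPM in IRE1fl, overlapping groups at a log2 fold change of 0.04 (SE 0.10). It made up 97.1% ± 0.147 of the transcripts of the 2 listed transporters per coding kb in IRE1PKO and 96.8% ± 0.412 in IRE1fl (SD, n = 3 each), the rest being Slc2a1, the transporter of red cells and many other tissues (log2 fold change -0.15, SE 0.14). Gckr, a regulatory protein of glucose phosphorylation in hepatocytes, had 215 to 238 CPM in IRE1PKO and 208 to 237 CPM in IRE1fl, at 0.06 (SE 0.09). Hk1 had 4.93, 4.94 and 4.45 CPM in IRE1PKO and 4.29, 4.06 and 3.26 CPM in IRE1fl, which did not overlap, at 0.30 (SE 0.19, edgeR adjusted p = 0.347).

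In upper glycolysis all 9 members had a log2 fold change above 0, from 0.08 to 0.56, and none passed. With library totals as the only scaling Gpi1, Pfkl and Aldoa passed (edgeR adjusted p = 0.0330, 0.0416 and 0.0247). The summed level was 1047, 948 and 932 CPM in IRE1PKO and 823, 887 and 777 CPM in IRE1fl. The highest CPM was that of Tpi1, the triosephosphate isomerase, with 437, 422 and 379.9 CPM in IRE1PKO and 387, 418 and 367 CPM in IRE1fl, overlapping groups at 0.08 (SE 0.10). Gpi1, the glucose-6-phosphate isomerase, had 309, 232 and 268 CPM in IRE1PKO and 209.7, 216 and 171 CPM in IRE1fl. Those groups did not overlap, and the value of 0.44 (SE 0.13, edgeR adjusted p = 0.0529) lay just outside the threshold. Aldoa, an aldolase of muscle and many other cells, was at 0.32 (SE 0.10, adjusted p = 0.0626), and Pfkl, the liver subunit of phosphofructokinase, at 0.29 (SE 0.10, adjusted p = 0.0903), both without overlap.

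Pfkl formed 72.7% ± 2.49 of the phosphofructokinase transcripts per coding kb in IRE1PKO and 71.0% ± 2.53 in IRE1fl (SD, n = 3 each), with the muscle subunit Pfkm at 22.2% ± 2.51 in IRE1PKO and 24.8% ± 3.18 in IRE1fl, and the platelet subunit Pfkp at 5.10% ± 0.691 in IRE1PKO and 4.23% ± 0.661 in IRE1fl. These shares overlapped between the genotypes by library. As single genes Pfkp was at a log2 fold change of 0.52 (SE 0.21, edgeR adjusted p = 0.146) and Pfkm at 0.09 (SE 0.12). The enzymes that set fructose 2,6-bisphosphate, the signal that drives phosphofructokinase, did not pass: Pfkfb1, the liver form, was at 0.18 (SE 0.13) and Pfkfb3, an inducible form, at 0.56 (SE 0.33). Pfkfb3 varied among IRE1PKO libraries, with 12.6, 16.9 and 26.0 CPM, beside 8.86, 15.9 and 12.9 CPM in IRE1fl. Aldoc, the brain aldolase, had 14.0, 16.2 and 10.9 CPM in IRE1PKO and 3.41, 13.9 and 11.8 CPM in IRE1fl, so that 1 low IRE1fl library set most of its 0.50 (SE 0.54); without that library, IRE1fl 1, the value was 0.09.

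In lower glycolysis Eno1b alone passed. Enolase makes phosphoenolpyruvate; Eno1 is its common form, Eno3 that of muscle, and Eno1b a gene on chromosome 18 close in sequence to Eno1. Eno1b had 94.5, 78.8 and 83.8 CPM in IRE1PKO livers and 10.7, 12.2 and 10.3 CPM in IRE1fl livers. The libraries of each genotype were close to each other and the genotypes far apart, with a log2 fold change of 2.95 (SE 0.11, edgeR adjusted p = 1.8e-07), which held with each library left out. Eno1 had 601, 524 and 563 CPM in IRE1PKO and 538, 555 and 442 CPM in IRE1fl, overlapping groups at 0.14 (SE 0.11, adjusted p = 0.494). Of the 50-base stretches in the longest Eno1b transcript of GENCODE vM21, 75.3% are also in Eno1 transcripts, so the split of reads between these genes is uncertain. Over all other genes that share was 84.5% for Eno1b and 72.2% for Eno1, so their sum does not settle reads shared with further genes. How reads matching both Eno1 and Eno1b were counted was not given in the sources used here.

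Summed, Eno1 and Eno1b had 695, 603 and 647 CPM in IRE1PKO and 549, 567 and 452 CPM in IRE1fl, and the log2 fold change of the sum, 0.31 (SE 0.11), missed the threshold (edgeR adjusted p = 0.114). Eno1b took 13.6%, 13.1% and 13.0% of that sum in the IRE1PKO libraries and 1.94%, 2.15% and 2.28% in the IRE1fl libraries. The share was nearly the same in the libraries of each genotype. Eno3 was at 7.73 to 7.87 CPM in IRE1PKO and 6.47 to 8.11 CPM in IRE1fl (log2 fold change 0.10, SE 0.15). Divided by coding length, the Eno1b share among the 3 enolase genes was 13.9% ± 0.366 in IRE1PKO and 2.24% ± 0.182 in IRE1fl (SD, n = 3 each).

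**Figure D3:**
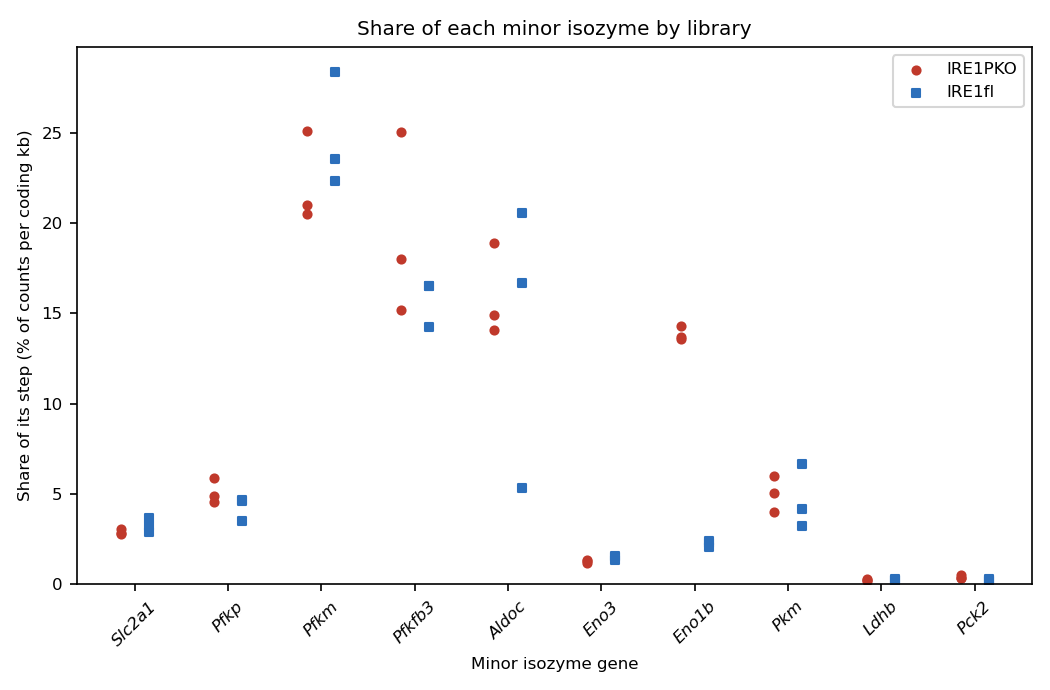
Share of each less abundant isozyme gene among the listed isozymes of its step, in percent of counts per coding kb, by library, with IRE1PKO (red circles) left of IRE1fl (blue squares). The Eno1b share stands at 13.6% to 14.3% in IRE1PKO and 2.05% to 2.41% in IRE1fl, while the Pfkm, Aldoc and Pkm shares overlap between the genotypes. The small Pck2 share does not overlap either, at 0.321% to 0.497% in IRE1PKO and 0.169% to 0.283% in IRE1fl.

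Pyruvate kinase, the last step of glycolysis, is encoded in hepatocytes by Pklr, whose liver start site is known from the rat for a carbohydrate response element bound by ChREBP. That window is shown because its match was among the rarest searched: the carbohydrate response element was in 13 of 32851 promoters, or 0.0400%, and in no other member. Ldha is shown beside it as the member with most matches, and is a known target of several E-box factors. In both, capitals mark the matches.
Pklr, chr3:89136373-89136622, plus strand, the second of 2 start sites: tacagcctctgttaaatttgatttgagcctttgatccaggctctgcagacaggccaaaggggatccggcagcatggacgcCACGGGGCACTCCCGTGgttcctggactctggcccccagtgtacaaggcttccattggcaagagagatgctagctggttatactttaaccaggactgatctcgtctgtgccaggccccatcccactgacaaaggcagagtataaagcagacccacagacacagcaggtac
Ldha, chr7:46845554-46845803, plus strand, the first of 2 start sites: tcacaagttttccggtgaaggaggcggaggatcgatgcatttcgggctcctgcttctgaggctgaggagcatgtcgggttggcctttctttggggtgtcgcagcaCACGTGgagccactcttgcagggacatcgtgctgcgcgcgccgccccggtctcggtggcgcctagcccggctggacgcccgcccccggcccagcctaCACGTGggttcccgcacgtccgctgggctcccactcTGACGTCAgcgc
In Pklr the element begins 170 bases before the start. In Ldha the capitals are E boxes (CACGTG) beginning 145 and 48 bases before the start and a CRE (TGACGTCA) at 12. The E box was in 6.02% of all promoters and the CRE in 1.55%, with a match in any window of 6.86% and 1.77% of 27025 genes. Among the 35 members with a listed promoter, 4 had an E box and 1 a CRE. Besides Ldha, E boxes were in windows of Pfkm, Pfkfb3 and Khk.

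Neither gene passed. Pklr had 668, 532 and 638 CPM in IRE1PKO and 385, 581 and 443 CPM in IRE1fl, groups that overlapped by 1 library, with a log2 fold change of 0.38 (SE 0.15, edgeR adjusted p = 0.151). It passed without the highest IRE1fl library, IRE1fl 2 (0.57, adjusted p = 0.0376). Pkm, the pyruvate kinase of muscle and dividing cells, had 36.2, 34.5 and 27.2 CPM in IRE1PKO and 28.0, 19.5 and 19.5 CPM in IRE1fl, at 0.55 (SE 0.16, adjusted p = 0.0678). The Pkm value passed without IRE1fl 1 (0.74, adjusted p = 0.00675) or without IRE1PKO 3 (0.66, adjusted p = 0.0398). Pklr kept 95.0% ± 0.991 of pyruvate kinase transcripts per coding kb in IRE1PKO and 95.3% ± 1.80 in IRE1fl (SD, n = 3 each).

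Ldha, the lactate dehydrogenase subunit that dominates in liver, had 1273, 998 and 991 CPM in IRE1PKO and 1001, 902 and 811 CPM in IRE1fl, at a log2 fold change of 0.27 (SE 0.13, edgeR adjusted p = 0.225). The heart subunit Ldhb had 2.11 to 2.66 CPM in IRE1PKO and 1.59 to 2.63 CPM in IRE1fl, at 0.21 (SE 0.27). The remaining genes of lower glycolysis were Gapdh, the glyceraldehyde-3-phosphate dehydrogenase (0.37, SE 0.29), the kinase Pgk1 (0.10, SE 0.09) and the mutase Pgam1 (0.19, SE 0.10). Gapdh had 73.5, 64.3 and 48.0 CPM in IRE1PKO and 56.2, 56.8 and 30.4 CPM in IRE1fl. Of its 50-base stretches 82.5% are also in transcripts of other genes, which are 222 in number, and for Pgk1 that share was 68.0% and for Pgam1 41.5%. Their levels are therefore uncertain.

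Fructose enters below phosphofructokinase through Khk, the ketohexokinase, and Tkfc, the triokinase that phosphorylates glyceraldehyde. Khk had 756, 593 and 669 CPM in IRE1PKO and 607, 619.7 and 502 CPM in IRE1fl, overlapping groups at a log2 fold change of 0.22 (SE 0.12, edgeR adjusted p = 0.289). Tkfc had 631, 476 and 539 CPM in IRE1PKO and 658, 645 and 506 CPM in IRE1fl, at -0.14 (SE 0.13, adjusted p = 0.575). Of the 50-base stretches of Tkfc, 16.8% are also in transcripts of its neighbour Cyb561a3, as 23.2% of those of Pklr are in Hcn3. Among genes near the threshold, 34.4% of the stretches of Pkm and 25.3% of those of Gpi1 are in transcripts of other genes, and for Ldhb the share was 27.0%.

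**Figure D4:**
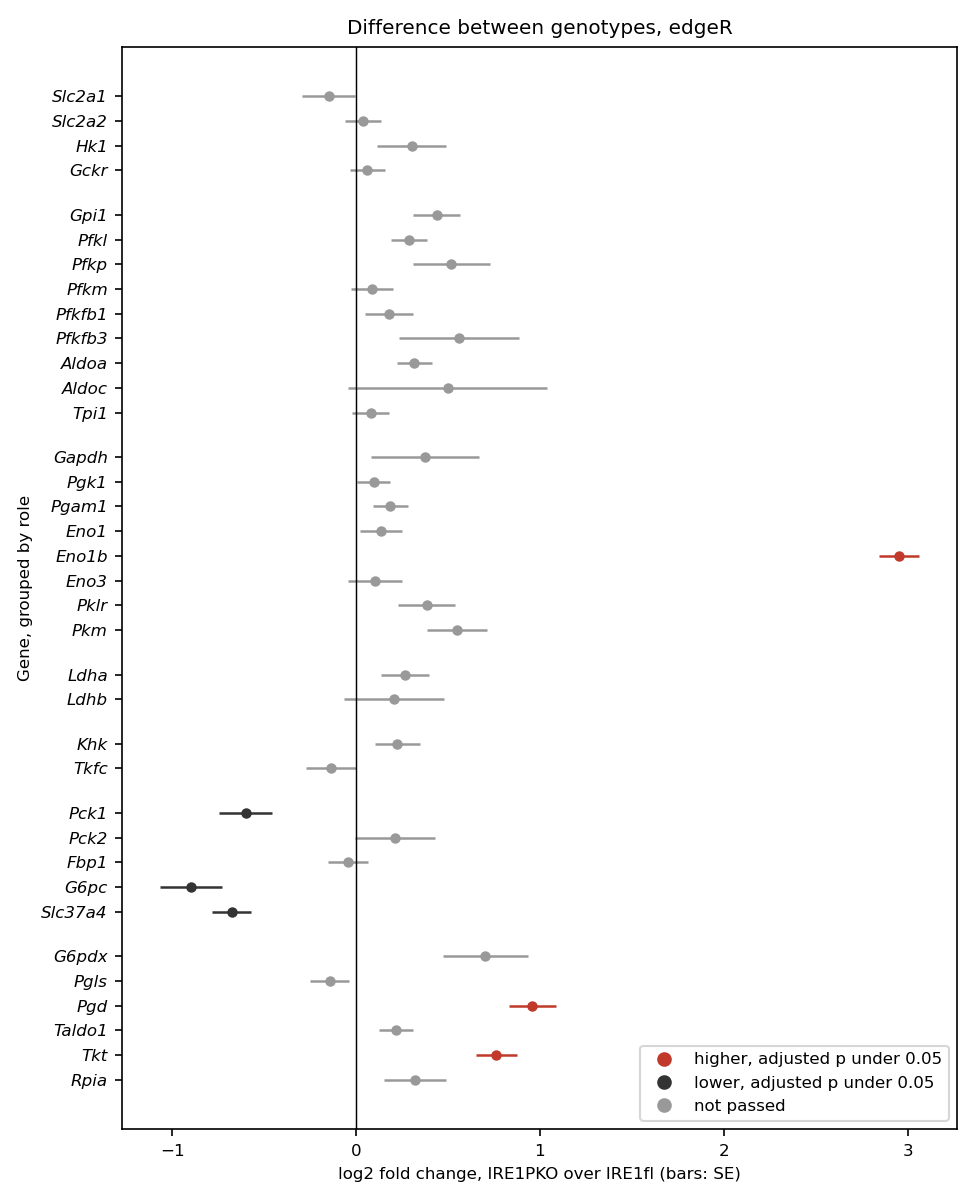
Log2 fold change of each member, IRE1PKO over IRE1fl, with its standard error, grouped by role from glucose entry at the top to the pentose phosphate pathway at the bottom. The 3 genes past the test on the low side (dark) are all gluconeogenic, those on the high side (red) are Eno1b, Pgd and Tkt, and the 9 genes of upper glycolysis (grey) lie above 0 without passing.

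Several members lay near the threshold. By DESeq2's Wald test, which called 7.90% of all tested genes as higher, 7 members were higher: Eno1b, Pgd and Tkt, and also Gpi1 (adjusted p = 0.0158), Pkm (0.0180), G6pdx (0.0375) and Aldoa (0.0423). The lower members by that test were again G6pc, Slc37a4 and Pck1. By edgeR, some of these genes passed when 1 library was left out: G6pdx without IRE1fl 1 (log2 fold change 0.95, adjusted p = 0.0226), Gpi1 without IRE1PKO 2 (0.54, adjusted p = 0.0448), and Aldoa (0.37, adjusted p = 0.0443) and Pfkl (0.37, adjusted p = 0.0316) without IRE1PKO 3.

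Some of these isozymes are also made by cells other than hepatocytes, some of whose markers moved with genotype. Over all tested genes 5.68% were called higher and 3.86% lower. Of 8 stellate cell and fibroblast markers 6 rose, and their summed level was 352 to 373 CPM in IRE1PKO and 166 to 199 CPM in IRE1fl. Of 6 endothelial markers 3 rose (189 to 253 CPM in IRE1PKO, 159 to 179 CPM in IRE1fl), of 4 cycling markers 3 rose (16.0 to 24.2 CPM in IRE1PKO, 7.49 to 8.72 CPM in IRE1fl), and of 8 macrophage markers 1 rose and 1 fell (298 to 399 CPM in IRE1PKO, 259 to 330 CPM in IRE1fl). No marker of these lists was at 0 in all libraries. Of 5 cholangiocyte markers 1 rose and 1 fell (40.8 to 52.7 CPM in IRE1PKO, 35.4 to 39.9 CPM in IRE1fl). Of 6 T, NK and B cell markers 1 fell and none rose (2.90 to 3.99 CPM in IRE1PKO, 5.01 to 6.30 CPM in IRE1fl). Of 5 erythroid markers 1 fell and none rose (310 to 946 CPM in IRE1PKO, 344 to 508 CPM in IRE1fl). The part of all these cells in the values of Hk1, Pfkp, Aldoa, Pkm and G6pdx was not tested. Skeletal muscle markers were at 0.896 to 1.36 CPM in sum, with Acta1 at 0 in every library and Ckm at 0 in 5 of the 6. Hepatocyte markers summed to 78074 to 96351 CPM in IRE1PKO and 86643 to 100826 CPM in IRE1fl, with Cps1 and Serpina1c lower in IRE1PKO and the other 5 not past the test. In whole liver, fewer cells of a type and less RNA per cell cannot be told apart.

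Other genes of the same pathways came from a list of 41, of which 38 were tested. In it 5 rose, of which 4 are described, and 1 fell, beside 5.68% and 3.86% of all tested genes. The list's median log2 fold change was 0.03. By DESeq2 8 rose and 3 fell, where 7.90% of all tested genes were higher and 890 of 14954 lower. Without IRE1fl 3, IRE1PKO 1 or IRE1PKO 2 edgeR called 3 higher and 0 lower, and fewer genes over the whole table as well. Hk2, an insulin-responsive hexokinase of muscle and fat, had 8.19, 9.31 and 7.21 CPM in IRE1PKO livers and 1.50, 1.30 and 2.10 CPM in IRE1fl livers. It was low in every IRE1fl library and rose by 2.33 (SE 0.22, edgeR adjusted p = 0.000197). Of 5 adipocyte markers 2 were tested. Fabp4 rose by 0.78 (SE 0.20, edgeR adjusted p = 0.0372). Cfd was at 2.15 (SE 0.57, adjusted p = 0.0787), without overlap. These 2 made up nearly all of the list's 19.6 to 27.2 CPM in IRE1PKO and 6.74 to 13.9 CPM in IRE1fl. The others on the list were at or near 0. Lep had no count in any library. Adipoq had 2, 0 and 0 counts in IRE1PKO and 0, 13 and 2 in IRE1fl. Plin1 had 0, 2 and 0 counts in IRE1PKO and 0, 8 and 2 in IRE1fl. The part of adipocytes in the Hk2 value was not tested. Pcx, the pyruvate carboxylase that makes oxaloacetate for gluconeogenesis and for fat synthesis, had 1137, 1023 and 1071 CPM in IRE1PKO and 753, 751 and 623 CPM in IRE1fl. It rose by 0.60 (SE 0.11, adjusted p = 0.00646), while Pck1, which uses its product, fell. Galk1, the galactokinase, rose by 0.72 (SE 0.09, adjusted p = 0.00129) and Gpd2, the mitochondrial glycerol-3-phosphate dehydrogenase, by 0.46 (SE 0.12, adjusted p = 0.0343). Rbks, the ribokinase, fell by 0.59 (SE 0.14, adjusted p = 0.0230).

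The calls of Hk2, Pcx and Galk1 held with each library left out. Those of Gpd2 and Rbks were lost without any library other than IRE1fl 1 (edgeR adjusted p up to 0.117 and 0.0984). Of 17 listed transcriptional regulators of these pathways 1 fell and none rose, beside 3.86% and 5.68% of all tested genes. Their median log2 fold change was -0.18, and 4 of the 17 were above 0, beside 49.8% of all tested genes. By DESeq2 4 fell, beside 890 of 14954 tested genes. Without IRE1PKO 3 edgeR called 2 lower, and without IRE1fl 1 it called 1 higher. The 1 that fell was Klf15, a fasting-induced factor of gluconeogenesis and amino acid breakdown, with 104, 136 and 113 CPM in IRE1PKO and 213, 201 and 195 CPM in IRE1fl, at -0.79 (SE 0.11, adjusted p = 0.00154). Mlxipl, which encodes ChREBP, had 260.0, 281 and 334 CPM in IRE1PKO and 384, 383 and 327 CPM in IRE1fl, overlapping groups at -0.32 (SE 0.12, adjusted p = 0.108). Foxo1, the insulin-restrained factor of G6pc and Pck1, was at -0.38 (SE 0.14, adjusted p = 0.135), and its coactivator gene Ppargc1a at 0.42 (SE 0.15, adjusted p = 0.114).

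**Figure D5:**
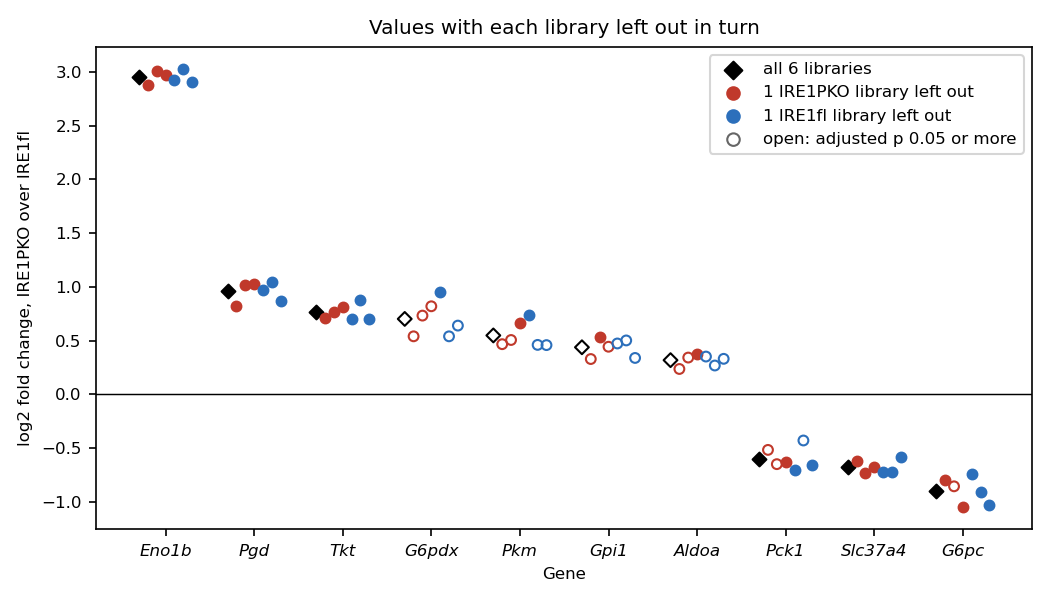
Log2 fold change, IRE1PKO over IRE1fl, of 10 members with all 6 libraries (black diamonds) and after omission of each library (circles, red where an IRE1PKO and blue where an IRE1fl library was left out); filled marks have an adjusted p under 0.05. Eno1b, Pgd, Tkt and Slc37a4 are filled throughout, Pck1 is open in 3 of the 6 and G6pc in 1, and no value of these genes crosses 0.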

How the data were processed

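Gene expression was measured by sequencing polyadenylated RNA of 6 liver samples. The authors deposited raw counts for each gene symbol and library in 1 table; the submitters' processing notes name the build mm10. The aligner, counting program, annotation and strand setting were not given in the sources used here. Even values from 1 to 8 outnumbered odd ones by 2.58 to 3.19 times, a pattern seen when both mates of a pair are counted, so counts may exceed fragments. Columns were matched to samples by genotype and replicate number in their names.

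The counts were filtered with filterByExpr, scaled by TMM and tested in R 4.3.3 with edgeR 4.0.16, quasi-likelihood with robust fitting, two-sided, adjusted over all 14954 tested genes. CPM are relative to scaled library totals. An exact permutation test of 3 against 3 cannot go below p = 0.1, so none was used. No source says that libraries of a group are separate animals, so p-values reflect a spread that may be technical. The code was tested on simulated data. Alternatives used DESeq2 1.42.0 and limma 3.58.1. The members, lists and tests were chosen with earlier results of these data known. Members are all accounted for; other listed genes are named where they passed, except 1 result that is not reported here, and Mlxipl, Foxo1 and Ppargc1a were named after their values were seen. Whether replicate numbers pair the samples was not stated in the sources used here. Promoters come from RefSeq and 35 of the 36 members matched. Shared 50-base stretches count exact matches on either strand to GENCODE vM21 transcripts of other genes.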

Additional observations from a re-analysis of the deposited data

How the results depend on the processing

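The 3 lower members were called under each alternative that kept all 6 libraries, except that G6pc was lost with the replicate number as a block. The count of higher members was 7 with library totals as the only scaling, without the filter on low counts and with DESeq2, and 8 at a threshold of 0.1; Eno1b, Pgd and Tkt were among them each time, and the additions were drawn from Gpi1, Pfkl, Aldoa, Pkm and G6pdx. With library totals the members' median was 0.29 and that of all tested genes 0.07. With each library left out in turn, 3 to 6 members were higher and 1 to 3 lower (1 without IRE1PKO 2, 5 higher without IRE1fl 1 and 6 higher without IRE1PKO 3), the members' median ran from 0.15 to 0.26, and 398 to 868 genes were higher and 255 to 616 lower over the table. Over all genes, 890 were lower with DESeq2, and 1299 were higher and 992 lower at a threshold of 0.1. With the replicate block, 9 members were higher and 2 lower, since Gpi1, Pfkl, Aldoa, Gapdh, Pkm and G6pdx passed and G6pc did not (edgeR adjusted p = 0.0690); Gpd2 also lost its call (0.0664). Whether libraries with the same number form pairs is not known. Their deviations correlated across genes with r of 0.12, -0.02 and 0.18. The values of 0.12 and 0.18 were the highest of any pair across genotypes, while IRE1PKO 2 correlated best with IRE1fl 1. Without division by coding length the Eno1b share differed by 10.9 percentage points between genotypes, in place of 11.6, and the Eno1 share by -10.8, in place of -11.4. With Eno1 and Eno1b summed, 2 members were higher. No named gene that passed in any setting changed direction. Among the values of single genes and of the other lists, 712 kept their side of the threshold or, for counts and medians, stayed close. These include sign changes of genes that passed in neither fit. Fbp1, for example, was at -0.04 in the main fit and at 0.03 under library totals. A further 30 gained a call, 27 lost one, and 16 counts or medians moved. At a threshold of 0.1, 3 regulators and 4 of the other pathway genes were lower, and with the replicate block 2 regulators were. Where a call changed, the cause was not tested. Depth was not limiting for most members, whose lowest count in a library was 59, for Ldhb; values of genes with near-identical copies stay uncertain at any depth.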
